A study of Homo sapiens with 8 samples.

Results

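Genes that mark the epithelium of the intestine were followed through RNA-seq libraries of HT29, an established line of human colon cancer cells. The members were 10 of the 18664 genes in the deposited table, taken by symbol as genes of the intestinal lineage, namely CDH17, LGALS4, CEACAM5, CEACAM6, MUC2, FABP1, GPA33, VIL1, PHGR1 and KRT20. The knockdown cells carried a lentiviral shRNA against ALDH1A1 (shALDH1A1, labelled as ALDH1A1 knockdown), and the control cells (CTRL) are variously labelled shControl, WT and parental, so whether they carried a control hairpin is not settled by the labels. Each condition had 4 libraries of total RNA, and cells of both conditions were grown in 10% FBS. Which of the human shRNAs was sequenced, and whether replicates came from separate cultures, was not stated, so that p-values measure only the spread between these libraries.

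The epithelium of the colon consists mainly of absorptive colonocytes, with a brush border of microvilli, and of goblet cells, which secrete the mucus layer. Both arise from stem cells at the base of the crypts, and the homeodomain factors CDX1 and CDX2 hold the epithelium in an intestinal state by binding near intestinal genes. Colon cancers commonly keep part of this program, and several of the 10 genes serve as tissue markers of a colorectal origin in pathology. The stomach has an epithelium of its own, with acid-secreting parietal cells and pepsinogen-secreting chief cells.

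As the regulatory context of the group, the 250 bases before the start site are shown for the 4 members in which a short core of an intestinal type of site was found. Of the 10 members, 7 were matched in the RefSeq promoter table (GRCh38.p14). CATAAA, the core letters of CDX-type sites, was searched on both strands and lay in 3 of the 7, against 9.64% of 35116 promoters of the same length. GATAA, the core letters of GATA-type sites, lay in 4 of the 7, against 20.4% of all promoters. Capitals mark these matches, with TTATC the same letters on the other strand, and each sequence is given along the strand of its gene. A match is a description of letters and not a site of binding, and binding was not measured.
FABP1 (chr2:88128063-88128312, minus strand): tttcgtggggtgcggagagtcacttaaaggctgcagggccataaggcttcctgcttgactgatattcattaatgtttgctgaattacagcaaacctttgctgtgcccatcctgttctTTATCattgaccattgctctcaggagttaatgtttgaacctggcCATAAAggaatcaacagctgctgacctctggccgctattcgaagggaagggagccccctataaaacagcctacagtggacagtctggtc
KRT20 (chr17:40885243-40885492, minus strand): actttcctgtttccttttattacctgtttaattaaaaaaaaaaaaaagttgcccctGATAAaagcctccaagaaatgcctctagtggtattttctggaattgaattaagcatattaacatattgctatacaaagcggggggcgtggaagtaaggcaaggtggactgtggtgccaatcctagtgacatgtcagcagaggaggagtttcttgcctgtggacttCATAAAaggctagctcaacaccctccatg
MUC2 (chr11:1074624-1074873, plus strand): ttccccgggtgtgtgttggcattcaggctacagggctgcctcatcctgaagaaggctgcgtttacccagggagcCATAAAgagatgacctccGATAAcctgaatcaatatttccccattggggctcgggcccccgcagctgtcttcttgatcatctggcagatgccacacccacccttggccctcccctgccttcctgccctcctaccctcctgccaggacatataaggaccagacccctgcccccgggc
LGALS4 (chr19:38812946-38813195, minus strand): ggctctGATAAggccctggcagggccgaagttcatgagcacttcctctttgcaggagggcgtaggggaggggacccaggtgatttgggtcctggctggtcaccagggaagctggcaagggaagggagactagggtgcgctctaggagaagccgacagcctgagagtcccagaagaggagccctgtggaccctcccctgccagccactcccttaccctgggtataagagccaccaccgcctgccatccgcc

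FABP1, KRT20 and MUC2 thus held both cores, and LGALS4 held GATAA alone. The levels of these 4 genes differed widely in the libraries, as given below for each of them.

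Depth and composition limited what could be seen. Counts assigned to genes totalled 536575 to 1908803 for shALDH1A1 and 291260 to 4137111 for CTRL, so that a count of 0 allows a level of up to 1.57 to 5.59 CPM, the count scaled to the library's total, for shALDH1A1 and up to 0.725 to 10.3 CPM for CTRL (3 counts of each total, for counting error only). ALDH1A1, the targeted gene, was counted 3, 1, 1 and 0 times in shALDH1A1 replicates 1 to 4, against 1858, 83, 1870 and 1000 counts in CTRL replicates 1 to 4. A list of 30 genes that every cell uses made up 0.0246 to 0.211% of each shALDH1A1 library and 1.40 to 5.94% of each CTRL library. The median log2 fold change of the 7971 genes tested was -1.44 with TMM factors and 2.03 when libraries were scaled to those 30 genes, so the direction of a weak change rests on the scale.

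The label of a colon cell line was checked against its defining genes, which were at or near 0 in both conditions. CDX2 was counted 0, 0, 0 and 3 times in shALDH1A1 replicates 1 to 4, against 0 in each CTRL library, and CDX1 had 0 in each shALDH1A1 library and at most 1 in a CTRL library. The 10 members together made up 0.00167 to 0.00970% of the gene counts of a shALDH1A1 library, and 0.00408 to 0.0276% of a CTRL library. By contrast, 19 genes of the stomach epithelium made up 0.00194 to 0.0388% of a shALDH1A1 library and 3.30 to 38.7% of a CTRL library. Among the stomach genes, 5 were at 0 in every shALDH1A1 library and 0 were at 0 in every CTRL library. Smooth muscle genes took 3.56% of the counts in one CTRL library. The CTRL libraries thus went against their label. The shALDH1A1 libraries held few counts even of genes that every cell uses (HPRT1 and HSP90AB1 were at 0 in replicate 1), so these values do not settle the label there. Per 100 counts of the genes that every cell uses, the members held 6.80, 2.73, 4.90 and 3.14 counts in shALDH1A1 replicates 1 to 4, against 0.209, 0.291, 1.42 and 0.411 counts in CTRL replicates 1 to 4, a ratio chosen after the values were seen and not tested. Scaled to those genes, 3426 of all 7971 genes tested were called higher in shALDH1A1 and 400 lower. A higher ratio is thus not particular to the members. The libraries are called by their labels below.

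**Figure D1:**
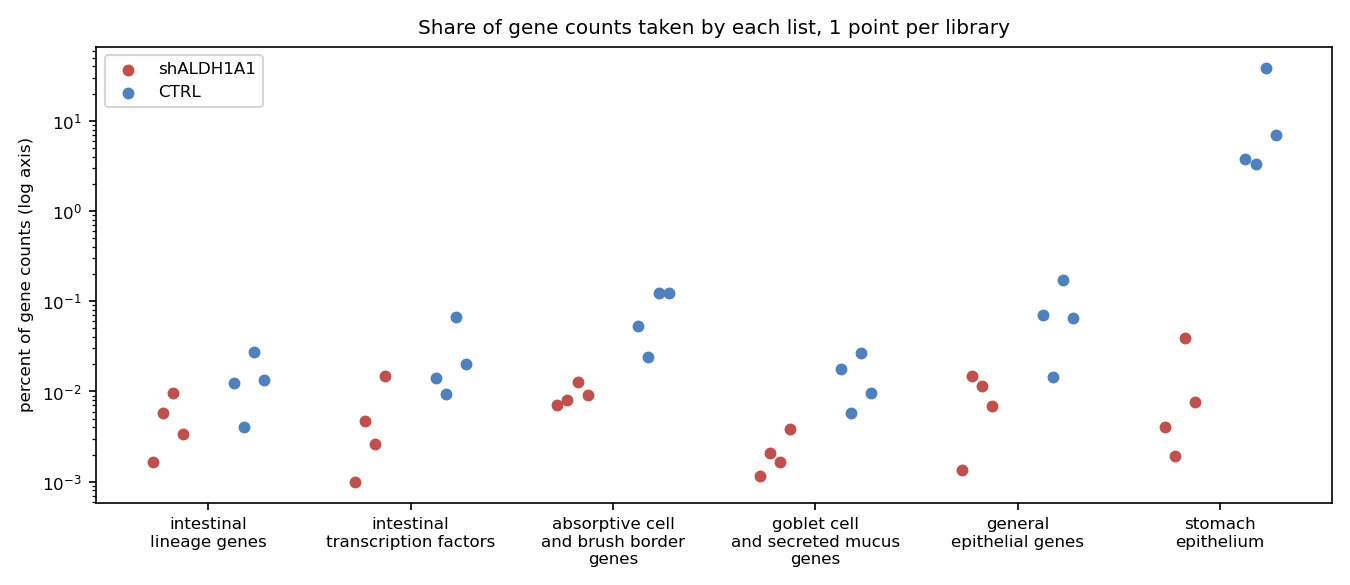
Share of each library's gene counts taken by 6 gene lists, in percent on a log axis, with 1 point per library and shALDH1A1 left of CTRL. The intestinal lineage genes reach at most 0.00970% in shALDH1A1 libraries and 0.0276% in CTRL libraries, whereas stomach epithelium genes reach 0.0388% in shALDH1A1 libraries and lie between 3.30 and 38.7% in CTRL libraries.

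All 10 genes were detected, at 1 or more counts, in at least 1 library of each condition, but mostly at a handful of counts. The number detected was 4, 7, 10 and 5 in shALDH1A1 replicates 1 to 4, against 7, 3, 9 and 5 in CTRL replicates 1 to 4. LGALS4 alone was detected in all 8 libraries. Detection in all 4 shALDH1A1 libraries was reached by 3 of the members (CDH17, LGALS4 and CEACAM5), a share of 30%, against 28.2% of all genes in the table. Detection in all 4 CTRL libraries was reached by 1 member, a share of 10%, against 52.9% of all genes.

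Summed over the members, the libraries held 32, 80, 163 and 18 counts in shALDH1A1 replicates 1 to 4, against 289, 12, 1142 and 221 counts in CTRL replicates 1 to 4. In CPM, the sums were 16.8, 57.5, 96.9 and 33.5 in shALDH1A1 libraries and 124, 41.2, 276 and 132 in CTRL libraries. The ranges of the conditions overlapped through CTRL replicate 2, the shallowest library, whose exact Poisson 95% interval ran from 21.3 to 72.0 CPM. Within shALDH1A1, replicate 3 was the highest (interval 82.6 to 113) and replicate 1 the lowest (interval 11.5 to 23.7), where the intervals cover counting error only. The gene that led the sum also varied, with CEACAM5 giving 79.0, 47.6 and 55.4% of it in shALDH1A1 replicates 1, 2 and 4 and 57.9% in CTRL replicate 2. LGALS4 led in shALDH1A1 replicate 3 and in CTRL replicates 1 and 4, and KRT20 led in CTRL replicate 3.

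**Figure D2:**
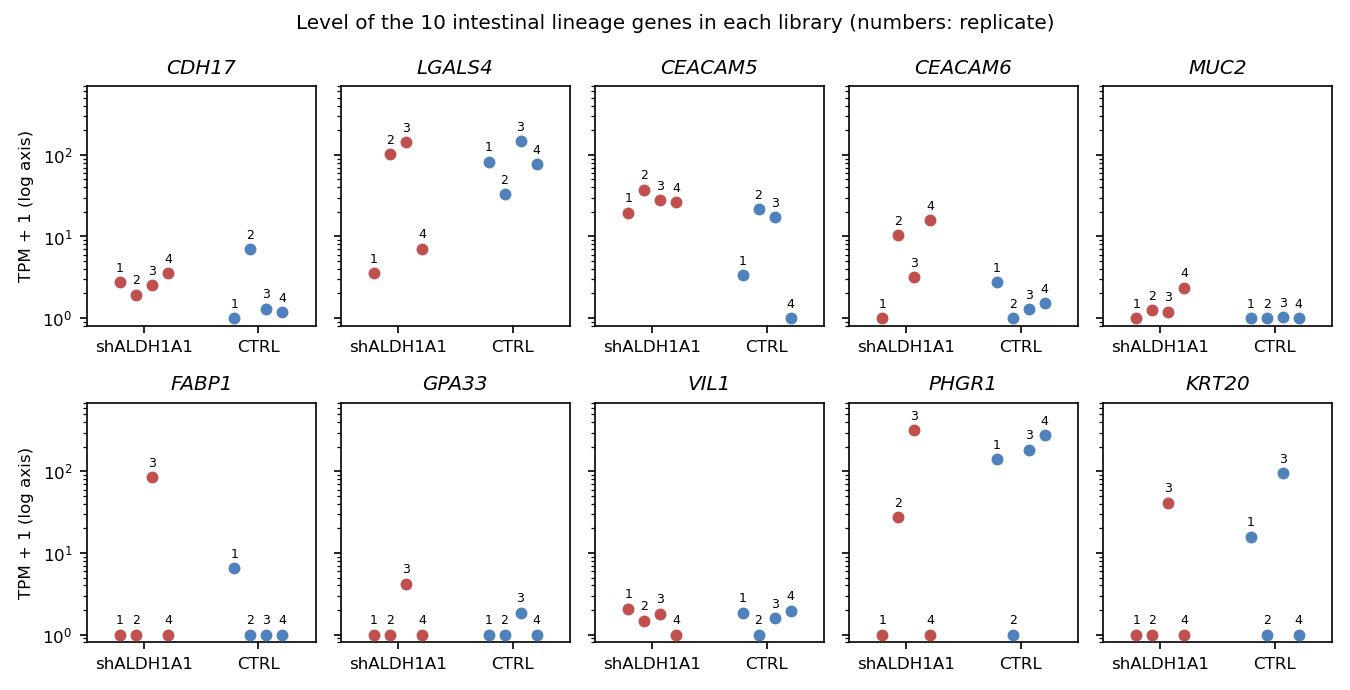
Level of each of the 10 genes in each library, as TPM + 1 on a log axis, with shALDH1A1 left of CTRL and the replicate number above each point. For every gene the points of the conditions overlap, and FABP1, GPA33 and KRT20 are above 0 in shALDH1A1 replicate 3 alone among the shALDH1A1 libraries.

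By mean TPM in shALDH1A1 cells, the order was PHGR1 (86.8), LGALS4 (62.5), CEACAM5 (26.7), FABP1 (20.9), KRT20 (10.1), CEACAM6 (6.57), CDH17 (1.70), GPA33 (0.795), VIL1 (0.588) and MUC2 (0.448). In CTRL cells it was PHGR1 (151), LGALS4 (84.2), KRT20 (27.4), CEACAM5 (9.76), CDH17 (1.61), FABP1 (1.39), CEACAM6 (0.643), VIL1 (0.600), GPA33 (0.213) and MUC2 (0.0075). The ranges over the 4 libraries overlapped between all neighbours in both orders, so neither order is firm.

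None of the members was called different between shALDH1A1 and CTRL cells. Only 3 of the 10 (LGALS4, CEACAM5 and PHGR1) passed the filter, which asks for enough counts in at least 4 libraries, and KRT20 did not pass despite 527 counts, since it was at 0 in 5 of the 8 libraries. Of the 3 tested, 0 were called at an adjusted p under 0.05 by edgeR's quasi-likelihood test, against 35.6% of all 7971 genes tested (2.60% higher and 33.0% lower). At an unadjusted p under 0.05 the number was also 0, against 3912 of all 7971 genes tested. DESeq2 called 0 of 3 members, against 5775 of all 7971 genes. With limma on log2(TPM + 1), 0 of 7 members were called, against 5578 of 13997 genes. The TPM ranges of the conditions did not overlap for 0 of the 10 members, against 43.1% of the genes tested. These sets are unlike, since 7 of the 10 members did not pass the filter that the genes tested had passed. A gene at 0 in a library of each condition has to overlap, so this contrast does not show that the members were stable. With no filter on low counts all 10 could be fitted, 0 were called and 1 (KRT20) had an unadjusted p under 0.05. Of all 17310 genes fitted that way, 8061 were called and 9671 had an unadjusted p under 0.05. A missed threshold does not show that the levels were equal, since the standard errors of the tested members were 1.10 to 1.17 on the log2 scale.

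The genes of the cell surface and of adhesion come first. LGALS4 encodes galectin-4, a lectin of the intestinal tract that binds sugars of membrane glycoproteins and glycolipids, and in GRCh37 it lies on the minus strand of chromosome 19 from 39292311 to 39303585. Its counts were 1, 30, 52 and 1 in shALDH1A1 replicates 1 to 4, against 149, 3, 403 and 113 counts in CTRL replicates 1 to 4. Its level was 2.55, 100, 141 and 6.07 TPM in shALDH1A1 libraries and 82.0, 31.9, 147 and 75.8 TPM in CTRL libraries. The shALDH1A1 libraries thus fell into a low pair and a high pair, and the high pair lay among the CTRL libraries. The means were 62.5 ± 69.2 TPM in shALDH1A1 cells and 84.2 ± 47.6 TPM in CTRL cells (SD, n = 4 each). By edgeR, its log2 fold change of 0.04 had a standard error of 1.12 (adjusted p = 0.979), and it was negative in 11 of 17 alternatives, down to -2.22 without TMM factors. In rank of TPM it stood between 669 and 7109 in shALDH1A1 libraries and between 350 and 3070 in CTRL libraries, and 94.8% of its counts were given to 1 of 3 transcripts, NM_006149.4.

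CEACAM5 encodes carcinoembryonic antigen, a membrane-anchored adhesion glycoprotein that is used as a serum marker of colorectal cancer. It lies on the plus strand of chromosome 19, from 42212504 to 42234353 (GRCh37). Its counts were 25, 38, 35 and 10 in shALDH1A1 replicates 1 to 4, against 13, 7, 153 and 0 counts in CTRL replicates 1 to 4. At 18.5, 36.3, 26.7 and 25.1 TPM the shALDH1A1 libraries were close to each other, whereas the CTRL libraries held 2.36, 20.5, 16.2 and 0 TPM. The 2 ranges overlapped only between shALDH1A1 replicate 1 and CTRL replicate 2. The means were 26.7 ± 7.36 TPM in shALDH1A1 cells and 9.76 ± 10.1 TPM in CTRL cells (SD, n = 4 each), with a log2 fold change of 1.91 (standard error of 1.10, adjusted p = 0.154 by edgeR). CEACAM5 was called higher in 1 of 17 alternatives, the scaling to genes that every cell uses (log2 fold change 4.69, adjusted p = 0.0152), and its adjusted p ranged from 0.0152 to 0.892 over them. On that scale 3426 genes were called higher and 400 lower, so that most calls ran this way.

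Further measurements bear on CEACAM5. Its counts were split over different transcripts, since NM_004363.6 received 18.9, 18.4, 11.8 and 9.92 counts in shALDH1A1 replicates 1 to 4 but 0, 0, 123 and 0 counts in CTRL replicates 1 to 4. It was the only member whose longest GENCODE transcript held sequence alike to RN7SL2, the 7SL RNA from whose family Alu repeats derive, at 152 of 3501 bases by blastn, and the other 9 had 0. Shares were taken over the counts of the 17951 genes with a protein-coding GENCODE transcript. Genes with over 50 such bases received between 79.0 and 85.4% of these counts in shALDH1A1 libraries, against between 14.4 and 70.6% in CTRL libraries. Of the genes with over 50 such bases, 68.7% were detected in all 4 shALDH1A1 libraries, against 16.8% of the other genes. In all 4 CTRL libraries the shares were 76.5% and 47.7%, so such genes were detected more often in both conditions. The part of such sequence in the level of CEACAM5 was not tested.

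CEACAM6, which encodes a lipid-anchored adhesion protein of the same family, lies 20531 bases downstream of CEACAM5 on the same strand, from 42254885 to 42276116 (GRCh37). Its counts were 0, 7, 2 and 4 in shALDH1A1 replicates 1 to 4, against 8, 0, 2 and 2 in CTRL replicates 1 to 4, which did not suffice for the test. Its mean level was 6.57 ± 6.75 TPM in shALDH1A1 cells and 0.643 ± 0.776 TPM in CTRL cells (SD, n = 4 each), with overlapping ranges. The longest transcripts of CEACAM6 and CEACAM5 were 90.3% identical over an alignment of 1067 bases, with a longest identical run of 65 bases, and 1.57% of the 50-base windows of CEACAM6 lay unchanged in CEACAM5. How reads from the shared stretches were divided is not known. Of the other paralogs on the lists, CEACAM7 had 0, 1, 0 and 0 counts in shALDH1A1 libraries and 1, 0, 3 and 0 counts in CTRL libraries, and CEACAM1 had 0, 0, 0 and 2 counts in shALDH1A1 libraries and 3, 0, 29 and 0 counts in CTRL libraries.

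CDH17, or LI-cadherin, joins neighbouring intestinal epithelial cells and is among the most specific markers of this lineage. Its counts were 3, 1, 2 and 1 in shALDH1A1 replicates 1 to 4, against 0, 2, 3 and 1 counts in CTRL replicates 1 to 4, a total of 13 counts in 8 libraries. Hence the higher TPM of CTRL replicate 2, at 5.98, rested on 2 counts in the shallowest library. GPA33, the A33 antigen of the intestinal epithelial surface, had 0, 0, 3 and 0 counts in shALDH1A1 libraries and 0, 0, 6 and 0 counts in CTRL libraries. Both genes were thus at the limit of detection in both conditions.

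PHGR1, a small protein rich in proline, histidine and glycine that is found in the gut epithelium, was among the most abundant members per transcript length, and its gene lies on the plus strand of chromosome 15 from 40643234 to 40648635 (GRCh37). Its counts were 0, 2, 30 and 0 in shALDH1A1 replicates 1 to 4, against 58, 0, 109 and 95 counts in CTRL replicates 1 to 4. Its levels were 0, 26.3, 321 and 0 TPM in shALDH1A1 libraries and 141, 0, 183 and 279 TPM in CTRL libraries. The highest value of all thus stood in shALDH1A1 replicate 3, and 3 CTRL libraries were high while CTRL replicate 2 was at 0. Its transcript is short, at 436 bases in GENCODE, so few counts give a high TPM. The means were 86.8 ± 157 TPM in shALDH1A1 cells and 151 ± 116 TPM in CTRL cells (SD, n = 4 each), with a log2 fold change of -0.31 (standard error of 1.17, adjusted p = 0.833 by edgeR). Without shALDH1A1 replicate 3 PHGR1 was called lower in shALDH1A1 cells (log2 fold change -4.28, adjusted p = 0.0198), so that 1 library decided this call, and its adjusted p ranged from 0.0198 to 0.843 over 17 alternatives.

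KRT20, an intermediate filament keratin of differentiated intestinal cells, was counted 0, 0, 26 and 0 times in shALDH1A1 replicates 1 to 4, against 47, 0, 454 and 0 counts in CTRL replicates 1 to 4. It was therefore present in 1 of the 4 shALDH1A1 libraries and 2 of the 4 CTRL libraries, and in the present ones its level was 40.4 TPM in shALDH1A1 replicate 3 and 14.8 and 94.8 TPM in CTRL replicates 1 and 3. In the 8 alternatives that tested it, the log2 fold change lay between -2.38 and 0.14 and the adjusted p between 0.0618 and 0.973. VIL1 encodes villin, which bundles actin in the microvilli of the brush border. Its counts were 3, 1, 2 and 0 in shALDH1A1 libraries and 11, 0, 11 and 10 counts in CTRL libraries, at no more than 1.08 TPM in any library.

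MUC2, the gel-forming mucin of goblet cells and the main protein of colonic mucus, was counted 0, 1, 1 and 2 times in shALDH1A1 replicates 1 to 4, against 0, 0, 1 and 0 counts in CTRL replicates 1 to 4. FABP1, which binds fatty acids in the cytosol of absorptive cells and of hepatocytes, had 0, 0, 10 and 0 counts in shALDH1A1 libraries and 3, 0, 0 and 0 counts in CTRL libraries. Although its TPM in shALDH1A1 replicate 3 was 83.7, this value rested on those 10 counts. Neither gene had a level that could be compared between the conditions.

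**Figure D3:**
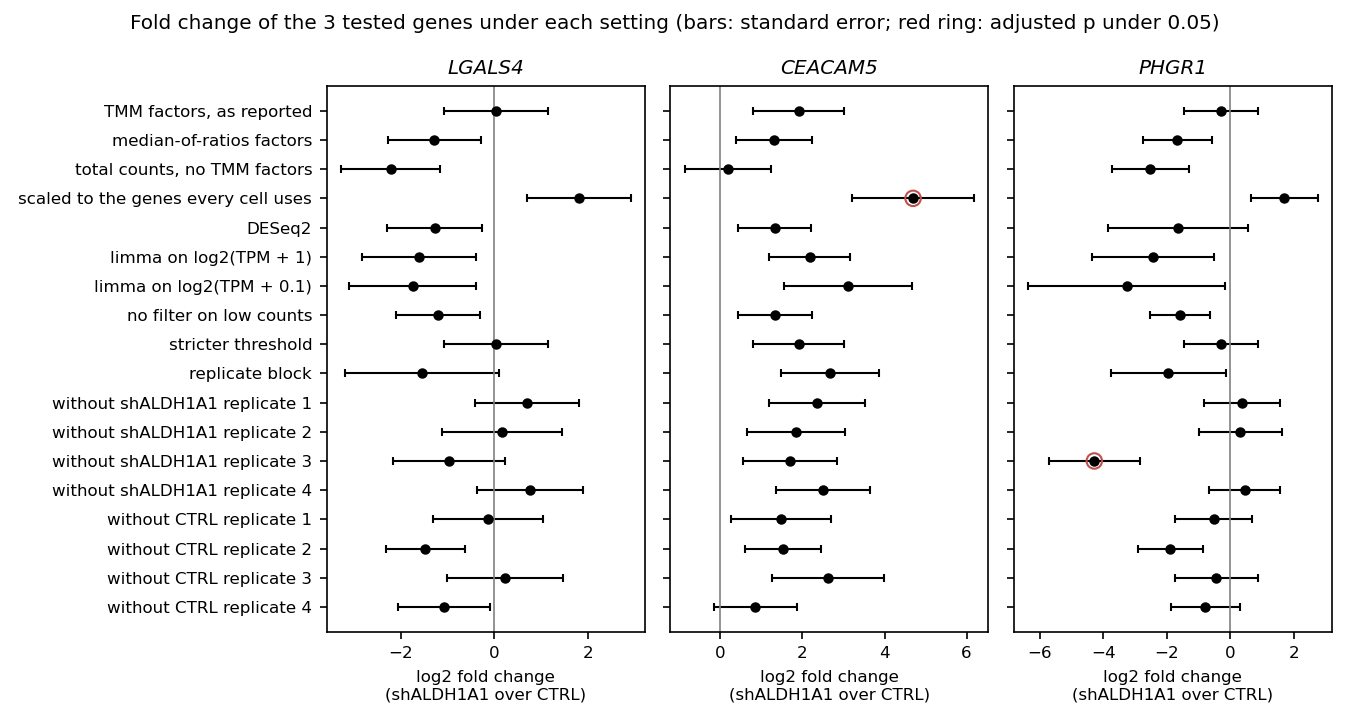
Log2 fold change of LGALS4, CEACAM5 and PHGR1 in shALDH1A1 over CTRL cells under each setting, with bars for the standard error and red rings where the adjusted p was under 0.05. LGALS4 and PHGR1 lie on both sides of 0, CEACAM5 lies above 0 throughout, and the 2 rings are CEACAM5 at 4.69 and PHGR1 at -4.28.

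The members did not move as a block across the 8 libraries. On the scale of log2(TPM + 1), Pearson's r was 0.86 between LGALS4 and PHGR1 and 0.74 between KRT20 and GPA33, but -0.21 between LGALS4 and CEACAM5 and -0.79 between PHGR1 and CDH17. Each r is a description over 8 libraries of unequal depth and composition. Outside the lists, the summed TPM of the members was most alike in pattern to CSTA (r = 0.93), TXNDC12 (r = 0.93), PBDC1 (r = 0.92), SDHAF3 (r = 0.92) and CHCHD1 (r = 0.91), among 5586 genes whose mean level was 10 TPM or more. These 5 genes all had 0 counts in shALDH1A1 replicates 1 and 4 and in CTRL replicate 2, the libraries in which PHGR1 and KRT20 were also at 0.

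Relative to general epithelial genes (13 genes of cell junctions, keratins and their regulators), the shALDH1A1 libraries were the higher ones. The members held 123, 38.3, 84.5 and 48.6 counts per 100 general epithelial counts in shALDH1A1 replicates 1 to 4, against 17.7, 28.6, 16.1 and 20.3 in CTRL replicates 1 to 4, with no overlap. Without CEACAM5 the ratios were 26.9, 20.1, 66.3 and 21.6 in shALDH1A1 libraries and 16.9, 11.9, 14.0 and 20.3 in CTRL libraries, which overlapped. This ratio was chosen after the values were seen and was not tested, and its lower term was as small as 26 counts in shALDH1A1 replicate 1. The general epithelial genes took 0.00136 to 0.0150% of a shALDH1A1 library and 0.0144 to 0.171% of a CTRL library. Other lists were not set against them, so the ratio is not shown to be particular to the members.

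**Figure D4:**
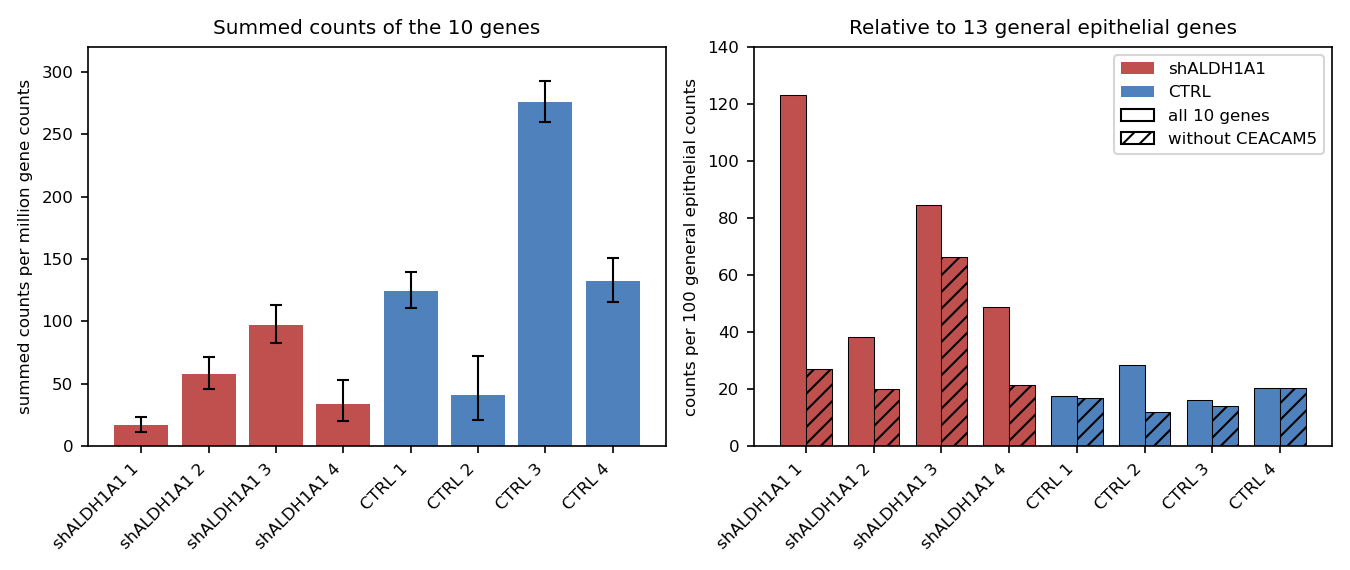
Left, summed counts of the 10 genes in CPM in each library, with exact Poisson 95% intervals. Right, the same counts per 100 counts of 13 general epithelial genes, with all 10 genes (plain) and without CEACAM5 (hatched). In the left panel shALDH1A1 libraries reach 96.9 and CTRL libraries 276, and in the right panel all 10 genes give 38.3 or more in shALDH1A1 libraries and 28.6 or less in CTRL libraries.

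The other genes of the intestinal program were described in the same way. Of 13 intestinal transcription factors, 5 were tested, 0 rose and 2 fell. Over all 7971 genes tested, 2.60% rose and 33.0% fell, so the 2 falls lie near that share. The median log2 fold change was -2.48 for the factors, against -1.44 over all genes tested. SPDEF, which drives the maturation of goblet cells, had 0 counts in every shALDH1A1 library, against 21, 4, 182 and 33 counts in CTRL replicates 1 to 4 (adjusted p = 0.00076 by edgeR), and it was also called lower on the scale of genes that every cell uses (adjusted p = 0.0220). KLF5, a factor of proliferating crypt cells, had 1, 6, 3 and 2 counts in shALDH1A1 libraries and 53, 4, 219 and 92 counts in CTRL libraries and fell with TMM factors (log2 fold change -2.48, standard error 0.98, adjusted p = 0.0478), but its log2 fold change was 0.39 on the other scale, and it was not called without shALDH1A1 replicate 1 (adjusted p = 0.131), 3 (0.0752) or 4 (0.160) or without CTRL replicate 1 (0.0661) or 3 (0.0959). SPDEF was called without any 1 of the 8 libraries. The log2 fold changes of KLF4, a factor of differentiated epithelium, and ELF3, an epithelial ETS factor, were -2.76 (adjusted p = 0.0995) and -1.51 (adjusted p = 0.224). With DESeq2, 3 of the 5 fell, as did 4449 of all 7971 genes tested, so this count is near the share over all genes. Of the 13 factors, 2 had 0 counts in all 8 libraries, ATOH1, the secretory lineage factor, and ISX, an intestinal homeobox factor.

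Among absorptive cell and brush border genes, 27 of the 28 listed were in the table, and 3 of them were tested. By edgeR 0 were called in either direction (median log2 fold change -1.67), whereas DESeq2 called 1 higher and 2 lower. Over all 7971 genes tested, edgeR called 35.6%, and DESeq2 called 1326 higher and 4449 lower. CA2, a carbonic anhydrase that parietal cells also use, had 12, 13, 83 and 2 counts in shALDH1A1 libraries, against 970, 24, 3400 and 1657 counts in CTRL libraries (log2 fold change -2.93, adjusted p = 0.0976 by edgeR). SLC26A2, a sulfate transporter, went the other way, with 123, 49, 70 and 26 counts in shALDH1A1 libraries and 6, 21, 34 and 5 counts in CTRL libraries (log2 fold change 2.40, adjusted p = 0.109), and it was called higher on the scale of genes that every cell uses (adjusted p = 0.0143). Its transcript held 146 RN7SL2-like bases and that of ELF3 held 77, whereas those of CA2, TSPAN8, AGR2 and GALNT12 held 0. The log2 fold change of TSPAN8, a tetraspanin, was -1.67 (adjusted p = 0.224). Of the 27 genes, 10 were at 0 in every shALDH1A1 library and 4 in every CTRL library, and 3 (ALPI, GUCA2A and AQP8, which mark mature enterocytes and colonocytes) were at 0 in all 8. Other genes of mature cells were counted, as GUCA2B, a ligand of the gut guanylate cyclase, with 0 counts in each shALDH1A1 library and 9, 4, 3 and 18 counts in CTRL libraries, and CDHR2, a cadherin that links microvilli, with 0, 3, 0 and 0 counts in shALDH1A1 libraries and 5, 0, 161 and 7 counts in CTRL libraries.

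Goblet cell and secreted mucus genes were similarly sparse, with 2 of 15 tested and 0 calls in either direction by edgeR, whereas DESeq2 called 1 lower (median log2 fold change -1.42 by edgeR). For comparison, edgeR called 35.6% of all 7971 genes tested, and DESeq2 called 4449 of them lower. AGR2, a protein disulfide isomerase needed for mucin folding, had 1, 7, 14 and 4 counts in shALDH1A1 libraries, against 290, 8, 601 and 125 counts in CTRL libraries (log2 fold change -2.40, adjusted p = 0.0716 by edgeR). GALNT12, an enzyme that starts O-glycans on mucins, lay at -0.44 on the log2 scale (adjusted p = 0.677) and was called higher on the scale of genes that every cell uses (adjusted p = 0.0274). Of the 15 genes, 2 had 0 counts in all 8 libraries, CLCA1 and ZG16, which are abundant in goblet cells of the colon. FCGBP, a mucus protein, had 0, 0, 1 and 0 counts in shALDH1A1 libraries and 28, 0, 137 and 5 counts in CTRL libraries, and ITLN1, a lectin, had 0 counts in each shALDH1A1 library and 14, 0, 10 and 4 counts in CTRL libraries. Of the general epithelial genes, 7 of 13 were tested, 0 rose and 1 fell by edgeR, whereas 6 fell by DESeq2. Over all 7971 genes tested, 33.0% fell by edgeR and 4449 fell by DESeq2. The gene called by edgeR was ESRP1, an epithelial splicing regulator, with 0, 3, 3 and 0 counts in shALDH1A1 libraries and 66, 4, 311 and 64 counts in CTRL libraries (log2 fold change -3.44, standard error 1.11, adjusted p = 0.0187), which was not called on the other scale (adjusted p = 0.365), nor without shALDH1A1 replicate 1 (adjusted p = 0.0690) or 4 (0.0869) or CTRL replicate 3 (0.0510). CDH1, or E-cadherin, and EPCAM lay at -2.53 (adjusted p = 0.0565) and -1.67 (adjusted p = 0.167) on the log2 scale.

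Markers of other tissues differed in how far they moved with the conditions, and their calls are read against all 7971 genes tested. With TMM factors 33.0% of those fell and 2.60% rose. DESeq2 called 4449 of them lower and 1326 higher, and the scale of genes that every cell uses called 400 lower and 3426 higher. Of 16 tested stomach genes, 13 fell and 0 rose (median log2 fold change -10.37), and 10 fell on the scale of genes that every cell uses. Of the 19 listed, 5 were at 0 in every shALDH1A1 library, so a fold change of those genes is no bound. ATP4A, the catalytic chain of the acid pump of parietal cells, was at 0 in every shALDH1A1 library, against 2128, 98, 18662 and 1033 counts in CTRL replicates 1 to 4. ATP4B, its other subunit, the potassium channel subunit KCNE2 and the acidic chitinase CHIA were likewise at 0 in all shALDH1A1 libraries. With TMM factors 5 of 8 fibroblast genes (POSTN, COL1A2, LUM and COL6A3 first), 2 of 4 tested leukocyte genes (JCHAIN and CD3E) and 1 of 8 smooth muscle genes (LMOD1) fell, and 0 of 2 endothelial and 0 of 3 red blood cell genes were called. By DESeq2, 14 stomach, 8 fibroblast and 3 leukocyte genes fell, 1 leukocyte gene rose, and 0 smooth muscle, endothelial and red blood cell genes were called. On the scale of genes that every cell uses, 1 fibroblast gene (POSTN) and 0 leukocyte and smooth muscle genes fell, while 1 leukocyte gene (LYZ), 1 endothelial gene (EMCN) and 3 red blood cell genes were called higher. Of the genes that every cell uses, 29 were tested and 2 fell with TMM factors (HPRT1 and HSP90AB1), against 28 with DESeq2. In a bulk library fewer cells of a type and less RNA per cell cannot be told apart, and the part of these tissue differences in the levels of the intestinal genes was not tested.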

How the data were processed

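RNA-seq of 4 shALDH1A1 and 4 CTRL libraries labelled HT29 was analysed. The deposited table gives expected counts and TPM, made by the authors for 84798 transcripts. The methods of the study name HISAT, hg19 and RSEM, whereas the submitters' processing notes name Bowtie2, BWA and GRCh38.p13, and the conflict was not resolved. Strand use in counting is not given in the sources used here. The deposited expected counts are raw estimates, of which 64.7% of those above 0 were not whole (tolerance 0.001).

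Values were summed per gene symbol and counts were rounded. All genes were fitted with edgeR 4.0.16 (filterByExpr minimum count 10 and total 15, TMM, two-sided quasi-likelihood test, Benjamini-Hochberg adjustment), and a call is an adjusted p under 0.05. The alternatives were DESeq2 1.42.0, limma 3.58.1 on log2(TPM + 1) and log2(TPM + 0.1) where the mean reached 1 TPM, 3 other scalings (1 by the total of 30 genes that every cell uses), no filter, a stricter threshold, a replicate block and leaving out each library (R 4.3.3). The stricter threshold was applied to the same fit and could not change a fold change. The functions were tested on simulated data. Alu-like sequence was searched with blastn 2.17.0 (E-value 1e-5), with RN7SL2 as the query. Named were all members, up to 4 genes of each other list with the smallest unadjusted p, ALDH1A1, the paralogs CEACAM1 and CEACAM7, and the 5 genes most alike in pattern, and genes at 0 in all libraries, GUCA2B, CDHR2, FCGBP, ITLN1 and genes defining a cell type were named after their values were seen. The members and lists were chosen with earlier results of these data known.

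Intervals and floors cover counting error only, since reads amplified without molecular identifiers may copy the same molecule. Depths ranged from 291260 to 4137111 counts.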

Additional observations from a re-analysis of the deposited data

Results flagged for a closer look

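In 8 of 20 sets of 4 libraries (each of the 10 genes in each condition, on the scale of log2(TPM + 1)), 1 library stood apart from the other 3 by Dixon's criterion. In 6 of the 8 the other 3 libraries were all at 0, so that any count in the fourth met the criterion, and the chance rate of about 1 in 20 groups does not apply to them. FABP1, GPA33 and KRT20 stood apart in shALDH1A1 replicate 3, at 6.40, 2.06 and 5.37, with the other shALDH1A1 libraries at 0. In CTRL libraries FABP1 stood apart in replicate 1 at 2.71, and GPA33 and MUC2 in replicate 3 at 0.89 and 0.043, again with the others at 0. CDH17 stood apart in CTRL replicate 2 at 2.80, against at most 0.38 in the others, and PHGR1 in the same library at 0, against 7.15 to 8.13 in the others. Of these values, CDH17 rested on 2 counts, MUC2 on 1, GPA33 on 3 and 6, FABP1 on 10 and 3, and KRT20 on 26 counts.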

How the results depend on the processing

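LGALS4, CEACAM5 and PHGR1 were followed under 17 alternatives. Among these, the stricter threshold used the same fit, so its fold changes could not move. CEACAM5 kept a positive log2 fold change in all 17, and was called in 1, the scaling to genes that every cell uses (4.69). LGALS4 turned negative with median-of-ratios factors (-1.28), total counts without TMM (-2.22), DESeq2 (-1.28), limma on log2(TPM + 1) (-1.61) and log2(TPM + 0.1) (-1.75), no filter (-1.21) and the replicate block (-1.55). Without 1 library it ranged from -1.47 to 0.76, negative without shALDH1A1 replicate 3 (-0.96) and CTRL replicates 1 (-0.14), 2 (-1.47) and 4 (-1.08). PHGR1 turned positive on the scale of genes that every cell uses (1.69) and without shALDH1A1 replicates 1 (0.37), 2 (0.32) and 4 (0.45), and ranged from -4.28 to 0.45 without 1 library. CEACAM5 ranged from 0.86 to 2.62 without 1 library. The members called numbered 0 in 15 alternatives and 1 in the scaling to genes that every cell uses and without shALDH1A1 replicate 3, a range of 0 to 1 without 1 library.

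Of all genes tested, 2834 were called, against 5095 with median-of-ratios factors, 5775 with DESeq2, 5578 and 5330 with limma on log2(TPM + 1) and log2(TPM + 0.1), 8061 of 17310 without a filter, 391 at the stricter threshold (adjusted p under 0.001 and absolute log2 fold change over 1) and 2080 to 7711 without 1 library, the highest without CTRL replicate 2. The higher calls were 207 of 2834, and 3426 of 3826 on the scale of genes that every cell uses. With the replicate block 3538 genes and 0 members were called. The deviations of same-numbered libraries correlated at -0.35, -0.11, -0.14 and 0.10, and those of differently numbered libraries between -0.32 and 0.39. These correlations showed no pairing by number. They cannot exclude a shared culture or batch, since the libraries differed widely in depth and composition. The cause of the differing numbers of called genes was not tested. Of the 10 members, 7 did not pass the filter, 6 of them with at most 38 counts in all 8 libraries together, and KRT20 with 527 counts in 3 libraries.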
